A study of Mus musculus with 316 samples.

Results

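The cytosolic ribosomal protein genes encode the protein part of the ribosomes that translate nuclear mRNA. They were taken from the table by symbol, as every row that began with Rpl or Rps and a digit, together with Rplp0, Rplp1, Rplp2 and Rpsa, without the pseudogene symbols that hold "-ps" and without the Rps6k kinases. This gave 87 members of 21970 mouse gene rows, of which 52 had large subunit symbols and 34 had small subunit symbols. The remaining symbol, Rps19bp1, encodes a protein that binds Rps19 and is no ribosomal protein. Among the 87 were 8 paralogues, extra gene copies known or thought to stand beside an ordinary subunit gene (Rpl22l1, Rpl39l, Rps27l, Rpl10l, Rpl3l, Rpl7l1, Rpl36al and Rps4l). In 86 members the mean TPM (a level scaled to transcript length and to the cell's total) reached 1 in at least 1 group. Rpl3l, the striated muscle form of Rpl3, stayed below and was left out of the comparisons of level.

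Single mouse cells of 4 kinds had been sequenced from polyA RNA. ESC were embryonic stem cells. FL_HSC were haematopoietic stem cells of fetal liver, Eng_BM-HSC were bone marrow-derived haematopoietic stem cells after engraftment, and Eng_ES-HSC were haematopoietic stem cells that had been derived from embryonic stem cells and had engrafted. The labels give no strain, genotype, age, treatment, donor, animal or culture, and although Notch activation appears in the title, no label says which cells it applies to. The design text frames the comparison as one of embryonic stem cell-derived stem cells with their starting cells and with haematopoietic stem cells of other origin. Of 316 cells, 313 were left after near-identical profiles were averaged, and 261 with at least 1000 genes at TPM 1 were kept. These were 77 ESC, 87 FL_HSC, 76 Eng_BM-HSC and 21 Eng_ES-HSC.

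A ribosome holds 1 copy of nearly every ribosomal protein, so their genes are known for being expressed strongly and together. Their mRNAs belong to the TOP class, which starts with a C followed by a run of pyrimidines (C or T) and whose translation is tuned by the mTOR pathway. Blood-forming cells are known to be sensitive to ribosome supply: loss of 1 copy of one of several of these genes causes Diamond-Blackfan anaemia in humans, and mouse haematopoietic stem cells are known to keep protein synthesis low. Most family members also have many processed pseudogenes, which makes short reads hard to assign.

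Start regions of members that the results below turn on were read from the RefSeq promoter table, build GRCm38.p6, which held 66 of the 87 members. Each window runs 5′ to 3′ on the gene's strand from 40 bases before the annotated start to 20 bases from it onward. Capitals mark a C followed by at least 4 pyrimidines, the TOP-like run, where one began at the start or otherwise within 5 bases of it. They are shown as pairs of ordinary gene and paralogue, then Rps15a and Rps21, whose levels stood out in Eng_ES-HSC. The windows lie at chr3:90213629-90213688 (minus strand) for Rps27, chr9:66946046-66946105 (plus) for Rps27l, chrX:37085203-37085262 (minus) for Rpl39, chr16:10170188-10170247 (plus) for Rpl39l, chrX:74270776-74270835 (plus) for Rpl10, chr12:66284382-66284441 (minus) for Rpl10l, chrX:134585614-134585673 (plus) for Rpl36a, chr12:69184048-69184107 (minus) for Rpl36al, chr7:118116128-118116187 (minus) for Rps15a and chr2:180257339-180257398 (plus) for the first annotated start of Rps21.
Rps27: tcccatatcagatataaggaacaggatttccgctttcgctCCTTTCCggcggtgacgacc
Rps27l: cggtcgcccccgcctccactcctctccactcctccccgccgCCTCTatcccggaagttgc
Rpl39: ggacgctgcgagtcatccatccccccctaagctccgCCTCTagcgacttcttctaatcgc
Rpl39l: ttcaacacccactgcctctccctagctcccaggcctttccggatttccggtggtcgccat
Rpl10: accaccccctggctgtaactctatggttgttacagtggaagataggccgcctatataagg
Rpl10l: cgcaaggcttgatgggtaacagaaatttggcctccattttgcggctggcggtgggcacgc
Rpl36a: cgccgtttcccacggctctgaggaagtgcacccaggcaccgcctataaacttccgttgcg
Rpl36al: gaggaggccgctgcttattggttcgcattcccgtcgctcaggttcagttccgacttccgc
Rps15a: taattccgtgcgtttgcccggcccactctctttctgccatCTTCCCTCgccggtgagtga
Rps21: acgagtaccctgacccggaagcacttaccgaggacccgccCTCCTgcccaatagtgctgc

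The run began exactly at the annotated start in Rps27, Rps15a and Rps21 and 4 bases before it in Rpl39. It began 1 base after the start in Rps27l, and none began within 5 bases of the start in Rpl39l, Rpl10, Rpl10l, Rpl36a and Rpl36al, whose windows hold such letters farther from the start. Rps27l and Rps21 each have a further annotated start, not shown, where no run began within 5 bases. Over the 57 ordinary members with an entry, 13 (22.8%) had the run exactly at the start, against 419 (2.65%) of 15822 other gene rows with an entry. Within 5 bases on either side the shares were 47.4% and 21.7%. Annotated starts can be some bases off, so an unmarked window says only that no run began within those 5 bases on either side. The letters TATA (gene strand) lay 15 to 40 bases before the start in 10.5% of the ordinary members and 7.45% of the other rows. Of the other 9 members with an entry, only Rps27rt, a retrocopy of Rps27, had the run exactly at the start.

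The groups differed in quality measures that touch every result below. The median number of genes detected was 5433 among ESC, 4233 among FL_HSC, 2585 among Eng_BM-HSC and 1609 among Eng_ES-HSC. Mitochondrially encoded genes held over 50% of TPM in 24 ESC, 14 FL_HSC, 10 Eng_BM-HSC and 2 Eng_ES-HSC. Each group also carries a library identifier of its own, and effects of the library and of the cell type cannot be told apart. Because no animal or culture is named, a group counts as 1 sample: spreads given below are over cells, and no test between groups was possible. The labels were checked against marker genes. In Eng_ES-HSC, 6 of 10 haematopoietic stem cell markers were detected in any cell and Meis1, Mecom, Erg and Procr were at 0. Their summed TPM ran from 0 to 4508 with a median of 4.19 there, against medians of 840 in FL_HSC (range 5.45 to 23369) and 1017 in Eng_BM-HSC (range 16.5 to 29584). All 10 granulocyte markers were found in Eng_ES-HSC, with a summed TPM of 0 to 536149 (median 834), and all 7 measured T and NK markers (median 274). ESC had all 9 pluripotency markers, with a median summed TPM of 10047. Eng_ES-HSC is therefore used here only as the label of those cells.

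The ribosomal protein genes together were a large part of the TPM of a typical cell in every group. The share of all TPM was 0.602% in the lowest, 9.70% in the median and 15.6% in the highest ESC. In FL_HSC the lowest, median and highest cells had 0.067%, 14.2% and 19.5%. In Eng_BM-HSC they had 0.319%, 13.2% and 26.97%, and in Eng_ES-HSC 0.279%, 8.63% and 19.7%. The groups overlapped over nearly their whole ranges. The medians of each pair of groups lay closer than the SD over cells of both, except for FL_HSC and ESC. Their distance exceeded the SD of ESC but not that of FL_HSC. The SD was 5.69 points in FL_HSC, 5.91 in Eng_BM-HSC, 4.04 in ESC and 5.58 in Eng_ES-HSC. These SDs include the cells rich in mitochondrial RNA. In cells of at most 50% mitochondrial TPM the medians were 10.7% in ESC (SD 1.99 points) and 14.7% in FL_HSC (3.64). They were 13.5% in Eng_BM-HSC (5.10) and 11.2% in Eng_ES-HSC (5.50). There the distance between FL_HSC and ESC exceeded the SD of both, and that between Eng_BM-HSC and ESC exceeded the SD of ESC.

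Much of the low end belonged to cells rich in mitochondrial RNA. A share under 5% was seen in 21 ESC, and all 21 had over 50% mitochondrial TPM. The same was true of 13 of 14 such FL_HSC, 9 of 15 such Eng_BM-HSC and 1 of 4 such Eng_ES-HSC. As a percent of TPM without the mitochondrially encoded genes, the lowest, median and highest values were 8.17%, 12.2% and 21.5% in ESC and 2.75%, 15.6% and 26.9% in FL_HSC. They were 0.324%, 15.5% and 27.1% in Eng_BM-HSC and 0.464%, 14.7% and 23.01% in Eng_ES-HSC. On this base no ESC lay under 5%, and 2 FL_HSC, 6 Eng_BM-HSC and 3 Eng_ES-HSC did. On both bases ESC had a lower median than FL_HSC and Eng_BM-HSC, while Eng_ES-HSC stood below ESC on all TPM and above it without the mitochondrial genes.

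**Figure D1:**
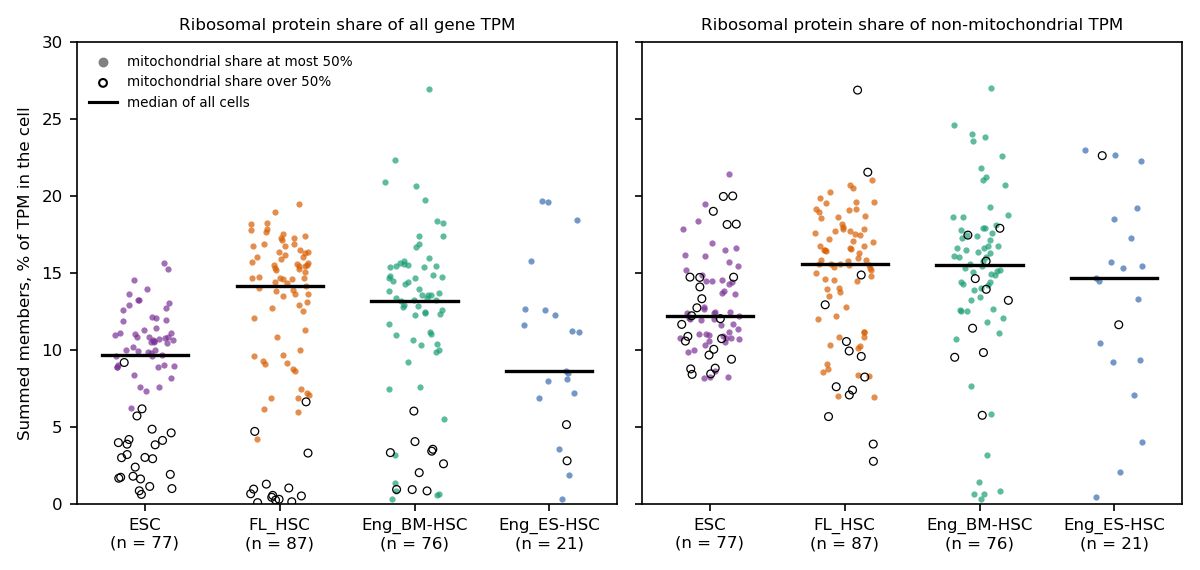
Summed ribosomal protein members as a percent of all gene TPM (left) and of TPM without mitochondrially encoded genes (right), 1 point per cell, with a line at each group's median and open points for cells over 50% mitochondrial TPM. The ESC at the low end on the left are open points, and on the right all 77 ESC lie between 8.17% and 21.5%, while 6 Eng_BM-HSC and 3 Eng_ES-HSC lie under 5%.

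Nearly all members were found in a typical cell of ESC, and fewer in Eng_ES-HSC. The number with a TPM of at least 1 was 62 in the lowest, 84 in the median and 86 in the highest ESC, and 33, 82 and 84 in FL_HSC. It was 20, 79 and 84 in Eng_BM-HSC and 10, 67 and 81 in Eng_ES-HSC. Fewer than 50 members were found in 0 ESC, 8 FL_HSC, 15 Eng_BM-HSC and 3 Eng_ES-HSC. The order of the medians, though not of these counts, is also the order of gene number over all genes. The part of gene number in the result was not tested. There were 40 members detected in every ESC, 12 in every FL_HSC, 6 in every Eng_BM-HSC and 3 in every Eng_ES-HSC (Rpl8, Rps15a and Rps24). The groups differ in their number of cells, and no such count over all genes stands beside these. They are therefore not read as particular to the members. Only Rpl8, a large subunit protein close to the site of peptide bond formation, was detected in all 261 cells.

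The order of the members by level was much alike in the 4 groups. Over the 86 tested members the Spearman correlation of mean TPM between groups ran from 0.832 (Eng_ES-HSC and FL_HSC) to 0.931 (Eng_ES-HSC and Eng_BM-HSC), where the points share gene length and the authors' quantification. The 10 strongest members held 36.7% of family TPM among ESC, 32.2% among FL_HSC, 38.9% among Eng_BM-HSC and 40.9% among Eng_ES-HSC. Rpl32 and Rpl14 were among the 10 strongest in all 4 groups. Rpl32, a large subunit protein, held 3.99% of family TPM among ESC, 4.11% among FL_HSC, 6.05% among Eng_BM-HSC and 5.28% among Eng_ES-HSC.

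The leading genes beside Rpl32 differed. In ESC the highest mean TPM belonged to Rpl4, which lines the exit tunnel, at 2877 ± 1861 (SD, n = 77 cells). In FL_HSC it was Rplp0, the base of the stalk that recruits translation factors, at 3990 ± 3149 (SD, n = 87). In Eng_BM-HSC Rpl32, at 5509 ± 3861 (SD, n = 76), was followed by Rps3a1 at 5389 ± 4868. In Eng_ES-HSC Rpl32, at 4073 ± 3990 (SD, n = 21), was also the highest, and Rps29, a small zinc-binding protein of the small subunit, had 3721 ± 2635. These spreads are as large as most of the distances between the leaders, so their order within a group is not fixed by the data.

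**Figure D2:**
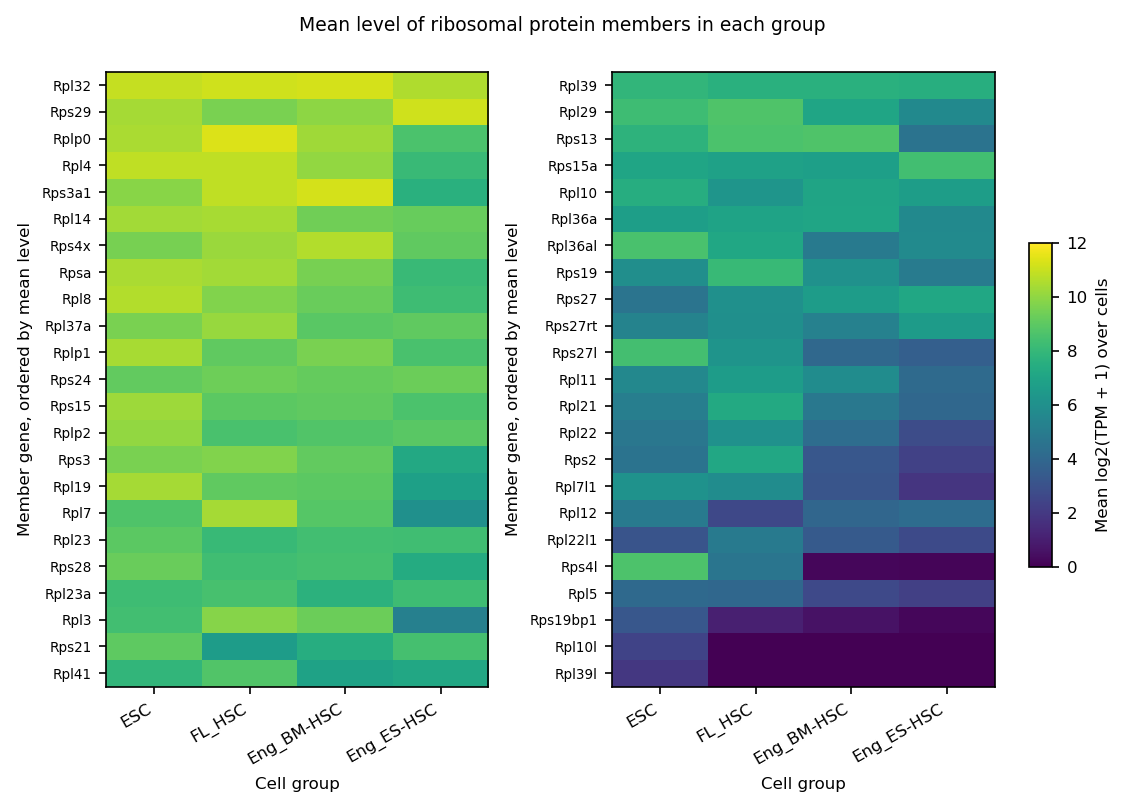
Mean log2(TPM + 1) over cells of 46 members described in the text in the 4 groups, ordered by their mean over groups and split into 2 columns of genes. Colour runs from 0 (dark) to 12 (yellow); Rpl32 heads the list, and Rpl39l and Rpl10l at its foot have a level above the dark end in ESC alone.

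Some ordinary subunit genes had low values. Rpl12, part of the base of the stalk, had a mean TPM of 42.1 ± 33.8 among ESC, 26.6 ± 70.96 among FL_HSC, 41.04 ± 55.5 among Eng_BM-HSC and 46.4 ± 43.9 among Eng_ES-HSC. Rpl5, which carries the 5S RNA, had 51.8 ± 80.5, 71.5 ± 115, 117 ± 437 and 41.2 ± 132 in the same order. Most of these spreads exceed the means. Over 86 members with a transcript in GENCODE M21, a median of 47.3% of the 31-base words of the transcript also occurred in transcripts of other genes, with a range of 0 to 94.1%. That share was 49.8% for Rpl12 and 77.2% for Rps2. Over the 85 tested members with a value, its Spearman correlation with mean TPM lay between 0.012 and 0.169 in the 4 groups. How shared reads were divided is not given in the sources used here, so levels of single members are uncertain.

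Between groups, differences are given for mean log2(TPM + 1) over cells, first named group minus second, beside the median of all 13239 tested genes. A member is counted as higher or lower when that difference is at least 1, and the share of all tested genes past the same difference stands beside the count. For FL_HSC minus ESC the median was 0.11 over members and -0.12 over all genes. There, 16 of 86 members were higher in FL_HSC and 17 lower, where 10.7% of all genes were higher and 17.7% lower. This balance depended on the scale: the log2 of mean TPM gave 33 higher and 4 lower, and quantile normalization 28 higher. On these 2 scales the median of all genes was 0.13 and -0.054, and the shares of all genes just given do not apply to them. By mean TPM, FL_HSC was the highest of the 4 groups for 43 members and ESC for 8. No such count over all tested genes stands beside this one, so it is not read as particular to the members. Against ESC the median member stood at -0.58 in Eng_BM-HSC (all genes -0.54) and at -1.57 in Eng_ES-HSC (all genes -0.68). In Eng_BM-HSC 3 members were higher and 27 lower, with 3.22% and 35.6% of all genes. In Eng_ES-HSC 3 were higher and 56 lower, with 2.23% and 40.9%.

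Among the blood groups, the median member was at -0.67 for Eng_BM-HSC minus FL_HSC (all genes -0.39), with 2 members higher and 30 lower against 1.84% and 29.1% of all genes. For Eng_ES-HSC minus FL_HSC it was -1.56 (all genes -0.52), with 5 higher and 57 lower against 2.26% and 35%. For Eng_ES-HSC minus Eng_BM-HSC it was -0.77 (all genes -0.10), with 4 higher and 38 lower against 2.22% and 8.55%. These 6 comparisons share groups, so they are not independent of each other. The share of members lower in Eng_BM-HSC than in ESC (31.4%) was near that of all genes. The share lower in Eng_ES-HSC than in Eng_BM-HSC (44.2%) was above that of all genes, in the group with the fewest cells and genes.

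The direction of these medians depended on which cells entered. With cells of 1000 to 3000 genes alone, Eng_BM-HSC stood 2.39 above ESC and 2.70 above FL_HSC, Eng_ES-HSC stood 1.27 above ESC and 1.61 above FL_HSC, and FL_HSC minus ESC was -0.57. That window held 6 ESC, all over 50% mitochondrial, 18 FL_HSC, of which 10 were over 50%, 65 Eng_BM-HSC and 17 Eng_ES-HSC. With cells of at most 50% mitochondrial TPM, a setting chosen after seeing the data, the signs were those of all kept cells, with -0.82 and -2.31 for Eng_BM-HSC and Eng_ES-HSC minus ESC. FL_HSC minus ESC was -0.34 without a filter on cells and -0.12 with mitochondrially encoded genes left out. The log2 of mean TPM gave 0.39 and 0.071 for Eng_BM-HSC and Eng_ES-HSC minus ESC.

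**Figure D3:**
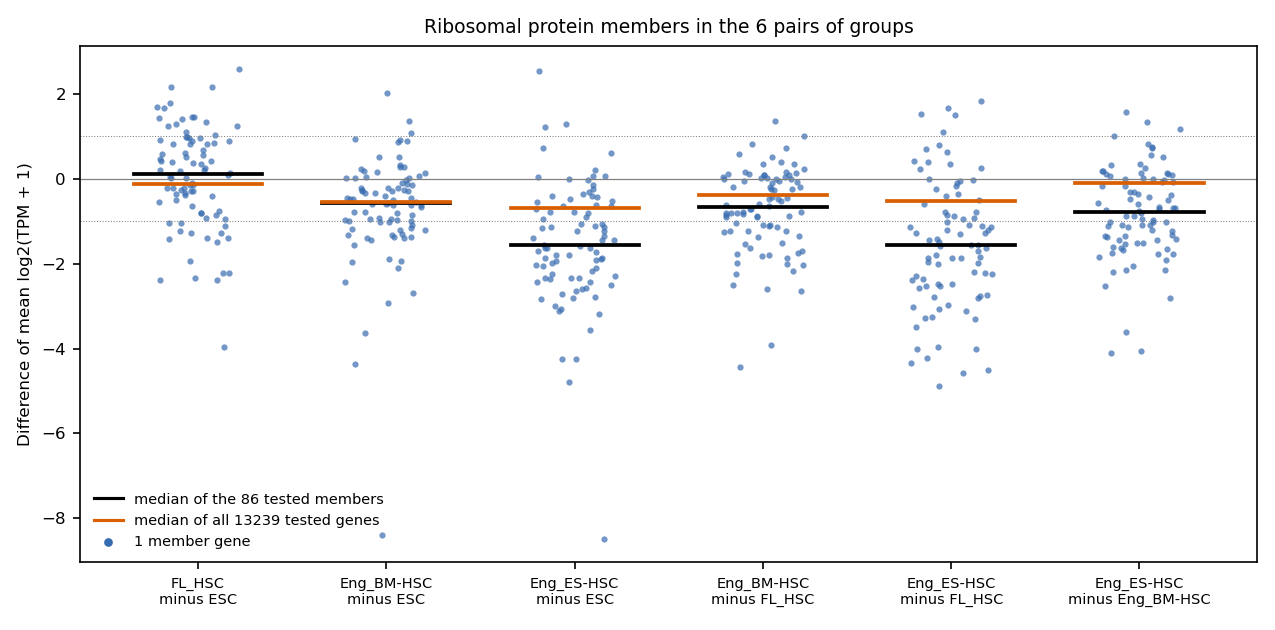
Difference of mean log2(TPM + 1) for each of the 86 tested members in the 6 pairs of groups, 1 point per gene, with the median of the members (black) and of all tested genes (orange) and dotted lines at a difference of 1 in each direction. The black line lies lowest, at -1.57 and -1.56, where Eng_ES-HSC is set against ESC and FL_HSC, and the lowest points in the comparisons with ESC are Rps4l.

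The large and small subunits held similar parts of family TPM. In ESC 52.7% of family TPM in the median cell came from large subunit symbols (range 43.7 to 81.9%), in FL_HSC 54.5% (6.96 to 79.9%), in Eng_BM-HSC 50.01% (29.7 to 95.8%) and in Eng_ES-HSC 49.3% (38.2 to 89.2%). The SD over cells was 4.55 points among ESC, 7.27 among FL_HSC, 11.3 among Eng_BM-HSC and 13.4 among Eng_ES-HSC, which exceeds most of the distances between medians. The median difference was -0.81 over 51 large subunit members and -0.42 over 34 small subunit members for Eng_BM-HSC minus FL_HSC. There 23 of the 51 (45.1%) and 7 of the 34 (20.6%) were lower by at least 1, against 29.1% of all genes. For Eng_ES-HSC minus FL_HSC it was -1.56 in both.

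Some members stood apart from their own family. Rps2, Rps19 and Rpl21 had their highest means in FL_HSC. Rps2, a small subunit protein at the mRNA entry, had a lowest, median and highest TPM of 0, 34.9 and 370 in ESC and 0, 509 and 1424 in FL_HSC. It had 0, 11.9 and 236 in Eng_BM-HSC and 0, 0 and 457 in Eng_ES-HSC. The median FL_HSC thus lay above the highest cell of each other group, although the ranges overlapped at the low end. On the log2 scale Rps2 was 2.59 higher in FL_HSC than in ESC. Eng_BM-HSC minus FL_HSC was -3.91.

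Rps19, the gene most often mutated in Diamond-Blackfan anaemia, had 0, 100.03 and 399 TPM in the lowest, median and highest ESC and 0, 951 and 1745 in FL_HSC. In Eng_BM-HSC it had 0, 168 and 753, and in Eng_ES-HSC 0, 85.3 and 637. Its median FL_HSC, too, was above the highest cell of the other groups. It differed by 2.17 between FL_HSC and ESC and by -2.04 between Eng_BM-HSC and FL_HSC. Rpl21, a large subunit protein, had means of 76.1 ± 107, 564 ± 441, 89.1 ± 269 and 38.9 ± 54.1 TPM in ESC, FL_HSC, Eng_BM-HSC and Eng_ES-HSC. In cells of 1000 to 3000 genes Rpl21 and Rps19 were higher in Eng_BM-HSC than in FL_HSC, by 1.73 and 1.17.

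Rps3a1, Rps13, Rpl3 and Rpl7 were strong in both FL_HSC and Eng_BM-HSC and weaker in Eng_ES-HSC. Their means were lower in ESC too, at 1420, 450, 566 and 894 TPM, against 1424, 337, 379 and 598 in Eng_ES-HSC. Rps3a1, a small subunit protein, ran from 11.2 through a median of 5016 to 33729 TPM in Eng_BM-HSC and from 0 through 698 to 7317 in Eng_ES-HSC. Its difference between these groups was -3.61. Rps13 had a median of 1328 TPM in Eng_BM-HSC (range 0 to 4877) and 14.5 in Eng_ES-HSC (0 to 2027), a difference of -4.10. Rpl3, which reaches towards the peptidyl transferase centre, had 1397 (0.0026 to 11074) and 85.6 (0 to 2142), a difference of -4.05. Rpl7 had medians of 2459 in FL_HSC and 211 in Eng_ES-HSC and differed by -4.34. Ranges overlapped for all 4, and each was undetected in 4 to 8 of the 21 Eng_ES-HSC.

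In the other direction Rps29, Rps21, Rps15a and Rps27 had higher mean log2 levels in Eng_ES-HSC than in FL_HSC, unlike the family median. Rps29 had 0, 3547 and 11634 TPM in the lowest, median and highest Eng_ES-HSC, against 0, 2489 and 8545 in Eng_BM-HSC and 0, 1749 and 3736 in FL_HSC. Rps21 had a median of 1026 TPM in Eng_ES-HSC, 487 in Eng_BM-HSC, 330.0 in FL_HSC and 616 in ESC. Rps15a, a small subunit protein, ran from 15.2 through 514 to 2022 in Eng_ES-HSC and was detected in all 21 cells, while its medians were 247 in Eng_BM-HSC and 449 in FL_HSC. The median Rps27 was alike in Eng_ES-HSC (303.9 TPM) and FL_HSC (304.4), where it was detected in 18 of 21 and 62 of 87 cells. Relative to the member median of Eng_ES-HSC minus FL_HSC, Rps21 stood at 3.40, Rps29 at 3.08, Rps15a at 3.06 and Rps27 at 2.66, and the low-level Rpl12 at 3.24. With cells of at most 50% mitochondrial TPM the differences of Rps15a, Rps29 and Rps27 themselves were 0.88, 0.74 and 0.28, below the step of 1, and that of Rps21 was 1.14. Without a filter on cells Rps15a was lower in Eng_ES-HSC than in FL_HSC, by -0.44.

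Against FL_HSC and Eng_BM-HSC, shorter members tended to be less low in Eng_ES-HSC than longer ones. Over 85 tested members with a GENCODE M21 transcript length, the Spearman correlation of length with the difference was -0.345 for Eng_ES-HSC minus FL_HSC and -0.291 for Eng_ES-HSC minus Eng_BM-HSC. It was -0.242 for Eng_BM-HSC minus FL_HSC and 0.210 for FL_HSC minus ESC. Over 12591 genes it lay between -0.022 and 0.090 in the same pairs. Members of up to 780 bases had a median difference of -1.19 for Eng_ES-HSC minus FL_HSC, and longer ones -1.93. Rps15a counted as a longer member, at 5130 bases, although a coding transcript of 640 bases is also annotated for it. These are weak correlations across genes, which share cells and libraries. The 43 shorter members held 57.3% of family TPM in Eng_ES-HSC, 51.6% in Eng_BM-HSC, 48.3% in FL_HSC and 54.5% in ESC. RNA quality was not measured, and its part in this was not tested.

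Several paralogues had their highest levels in ESC. Rps4l, next to the X-linked ordinary gene Rps4x, had a lowest, median and highest TPM of 0, 1021 and 2706 in ESC. It had 0, 55.9 and 1167 in FL_HSC. The values were 0, 0 and 562 for Eng_BM-HSC and 0, 0 and 6.95 for Eng_ES-HSC. It was detected in 98.7% of ESC (exact 95% interval 92.98 to 99.97%) and 72.4% of FL_HSC (61.8 to 81.5%). Of Eng_BM-HSC, 3.95% had it (0.822 to 11.1%), as had 4.76% of Eng_ES-HSC (0.120 to 23.8%). Of the summed mean TPM of the pair it made 42.8% among ESC, 6.46% among FL_HSC, 0.252% among Eng_BM-HSC and 0.0129% among Eng_ES-HSC. It exceeded Rps4x in 21 of 77 ESC and in 0 cells of the other groups. GENCODE M21 annotates Rps4l on GRCm38 at chr6:148354656-148355598 (plus strand) as a transcribed processed pseudogene, so the row may be an RNA without a protein. Of its 759 words of 31 bases, 5 (0.659%) occur in Rps4x transcripts.

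Rpl39l and Rpl10l were found in ESC with at most 1 cell elsewhere. Rpl39l encodes the form of Rpl39 known from male germ cells, where it takes the place of Rpl39 in the exit tunnel. It had a TPM of 0 in the median ESC and 554 in the highest, was detected in 29 of 77 ESC (37.7%, exact 95% interval 26.9 to 49.4%) and made 8.73% of the pair with Rpl39. It was listed at 0 in all 87 FL_HSC, 76 Eng_BM-HSC and 21 Eng_ES-HSC, which allows shares of up to 3.45%, 3.95% and 14.3%. Rpl39 itself was found in all 4 groups, at 338 TPM on average among ESC, 587 among FL_HSC, 617 among Eng_BM-HSC and 683 among Eng_ES-HSC. Every ESC with Rpl39l also had Rpl39. Rpl10l, a retrocopy of X-linked Rpl10 that mouse spermatocytes need, was detected in 42 of 77 ESC (54.5%, interval 42.8 to 65.9%), with a median TPM of 1.35 and a highest of 488. It was found in 1 of 87 FL_HSC and in none of the Eng_BM-HSC and Eng_ES-HSC. All 42 of those ESC also had Rpl10. In the 6 ESC of 1000 to 3000 genes, the window in which most Eng_BM-HSC and Eng_ES-HSC lie, Rpl39l was at 0 and Rpl10l made 2.30% of its pair.

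Between Rps27 and Rps27l the stronger gene differed by group. Rps27l is a close copy of Rps27 and a known target of p53. Rps27l had a lowest, median and highest TPM of 0, 697 and 1427 in ESC and 0, 291 and 1331 in FL_HSC. For Eng_BM-HSC these were 0, 20.95 and 1676, and for Eng_ES-HSC 0, 22.4 and 825. Rps27 had 0, 65.6 and 373 in ESC and 0, 304 and 3672 in FL_HSC. For Eng_BM-HSC these were 0, 322 and 2326, and for Eng_ES-HSC 0, 304 and 1901. Rps27l thus made 87.4% of the pair among ESC, 49.3% among FL_HSC, 33.8% among Eng_BM-HSC and 19.9% among Eng_ES-HSC. It was the higher of the 2 in 72 of 76 ESC with the pair and 37 of 71 FL_HSC, but in 17 of 64 Eng_BM-HSC and 4 of 19 Eng_ES-HSC. With cells of at most 50% mitochondrial TPM the shares were 87.02%, 49.5%, 31.95% and 20.7%. The transcripts of Rps27l share no 31-base word with Rps27, whereas those of the retrocopy Rps27rt share 91.6% with it. Rps27rt had its lowest mean in ESC and its highest, 276 TPM, in Eng_ES-HSC, so its reads and those of Rps27 cannot be told apart with confidence.

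Rpl36a and Rpl36al showed a like exchange between ESC and both FL_HSC and Eng_BM-HSC. The X-linked Rpl36a had a median TPM of 213 among ESC (range 0 to 820), 795 among FL_HSC (0 to 2086), 510 among Eng_BM-HSC (0 to 2345) and 229 among Eng_ES-HSC (0 to 4226). Its autosomal copy Rpl36al had 553 (1.82 to 1694), 322 (0 to 1324), 50.4 (0 to 1599) and 269 (0 to 2355). Rpl36al made 71.3%, 34.5%, 32.97% and 53.2% of the pair, and it was the higher gene in 68 of 77 ESC and 25 of 80 FL_HSC, and in 20 of 64 Eng_BM-HSC and 10 of 17 Eng_ES-HSC. In FL_HSC of 1000 to 3000 genes its share was 72.3%.

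Rpl22 and Rpl22l1 are RNA-binding copies, of which Rpl22 is known to be needed for mouse αβ T cell development. Both were highest in FL_HSC, with a median Rpl22 of 178 TPM (range 0 to 718) and a median Rpl22l1 of 108 (0 to 440). In ESC the medians were 39.7 and 11.5, in Eng_BM-HSC 25.4 and 13.3 and in Eng_ES-HSC 6.18 and 0. Rpl22l1 made 22.9% of the pair in ESC, 25.9% in Eng_BM-HSC and 61.99% in Eng_ES-HSC, and its median share within an FL_HSC was 36.5%. The last value rests on few cells: Rpl22l1 was detected in 9 of 21 Eng_ES-HSC and reached 570 TPM in 1, and the median share within a cell was 28.2% ± 44.03 (SD, n = 14).

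Rpl7l1, the relative of Rpl7 known for a part in large subunit assembly rather than in the finished ribosome, had a median TPM of 110 in ESC (range 0.419 to 581) and 131 in FL_HSC (0 to 1142). In Eng_BM-HSC it was 5.87 (0 to 1077) and in Eng_ES-HSC 1.47 (0 to 88.1). The log2 difference was -4.25 for Eng_ES-HSC minus ESC and -2.92 for Eng_BM-HSC minus ESC, though 0.61 for the latter in cells of 1000 to 3000 genes. Rps19bp1 had a mean of 48.3 ± 111 TPM among ESC, 9.62 ± 30.6 among FL_HSC, 4.21 ± 14.9 among Eng_BM-HSC and 0.991 ± 4.54 among Eng_ES-HSC, so that FL_HSC lay below ESC, unlike for Rpl7l1. Rpl3l was detected in 2 ESC and 1 FL_HSC and was listed at 0 in every cell of the other groups.

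**Figure D4:**
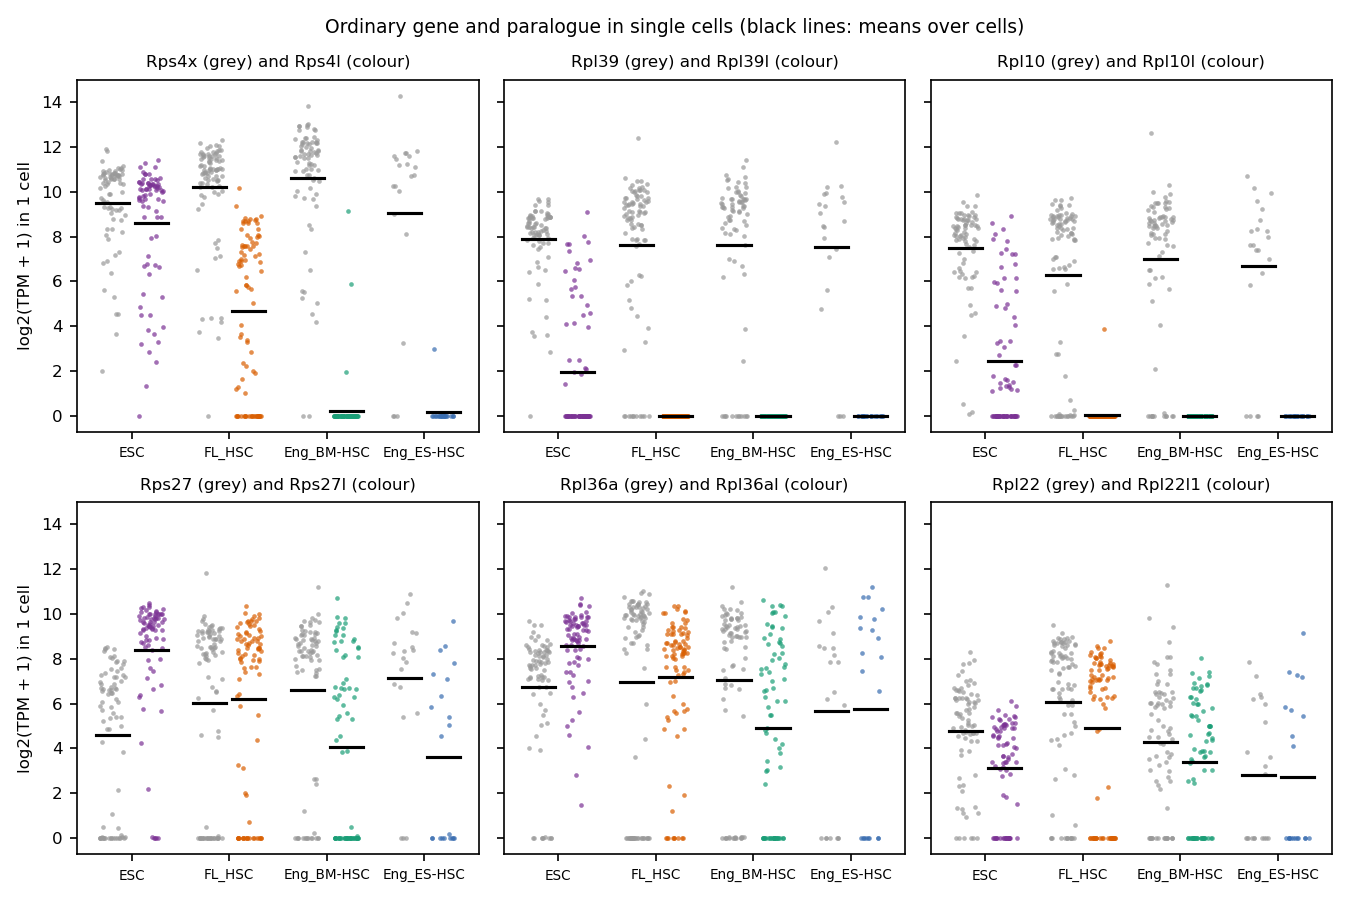
log2(TPM + 1) of 6 ordinary genes (grey) and their paralogues (colour) in single cells of the 4 groups, with black lines at the means over cells. Points of Rps4l, Rpl39l and Rpl10l leave 0 mainly in ESC (Rps4l also in FL_HSC), and the line of Rps27l lies above that of Rps27 in ESC and below it in Eng_BM-HSC and Eng_ES-HSC.

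Members with a shared role were described next. The P-stalk proteins Rplp0, Rplp1 and Rplp2 form the arm that binds elongation factors. Rplp0 had median TPMs of 2478, 3809, 2406 and 1094 in ESC, FL_HSC, Eng_BM-HSC and Eng_ES-HSC. Rplp1 had 2168, 1137, 1905 and 1053 in that order, and Rplp2 1267, 1122, 938 and 1156. Rplp0 was thus highest and Rplp1 well below ESC in the median FL_HSC, with ranges that overlapped throughout. Rpl5, Rpl11 and Rpl23 are known to bind Mdm2, the protein that restrains p53. Rpl11 had a mean of 75.3 ± 53.2 TPM among ESC, 417 ± 332 among FL_HSC, 137 ± 108 among Eng_BM-HSC and 92.1 ± 128 among Eng_ES-HSC. Rpl23 had 689 ± 465, 670 ± 490, 759 ± 658 and 1181 ± 2736 in the same order, so its groups lay within the spread over cells.

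The 18 members known to be mutated in Diamond-Blackfan anaemia were set beside the whole family. Their median difference was 0.31 for FL_HSC minus ESC (5 higher and 2 lower), -0.80 for Eng_BM-HSC minus FL_HSC (0 and 6) and -1.64 for Eng_ES-HSC minus FL_HSC (2 and 13). The medians of all 86 members were 0.11, -0.67 and -1.56. Of all genes, 10.7% were higher and 17.7% lower in the first pair, 1.84% and 29.1% in the second and 2.26% and 35% in the third. The pair higher in Eng_ES-HSC was Rps29 and Rps27, described above.

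Genes that build ribosomes were set beside the members. The 30 ribosome biogenesis genes, such as nucleolar proteins and subunits of RNA polymerase I, had a median of -0.92 for FL_HSC minus ESC, -2.80 for Eng_BM-HSC minus ESC and -3.46 for Eng_ES-HSC minus ESC. In these comparisons 14, 28 and 29 of the 30 were lower by at least 1, and 1, 0 and 0 were higher. The 77 mitochondrial ribosomal protein genes had -0.57, -2.20 and -2.67, with 28, 72 and 69 lower and 6, 0 and 0 higher. The 15 other TOP mRNAs, mostly translation factors, had 0.27, -1.70 and -3.08, with 2, 11 and 13 lower and 4, 0 and 0 higher. Of all genes, 17.7%, 35.6% and 40.9% were lower and 10.7%, 3.22% and 2.23% higher. The cytosolic members, at 0.11, -0.58 and -1.57, thus lay nearer to 0 than the 2 other ribosome lists in each of the 3 comparisons. The lists differ in level and in how often their genes are missed in a cell, and the part of that was not tested. Between Eng_ES-HSC and Eng_BM-HSC the order was another one, with -0.77 for the members, -0.45 for biogenesis genes and -0.31 for mitochondrial ribosomal proteins.

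Pseudogene rows took little of the TPM. The 18 rows held a median of 0.101% for ESC, 0.215% for FL_HSC, 0.125% for Eng_BM-HSC and 0.134% for Eng_ES-HSC.

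Members varied less from cell to cell than most genes past the same level. Among genes whose mean TPM reached 100, the median coefficient of variation (SD over mean, over cells) was 0.648 over 70 members among ESC, 0.728 over 81 among FL_HSC, 0.862 over 70 among Eng_BM-HSC and 1.21 over 68 among Eng_ES-HSC. Over all genes past the same level it was 1.09, 1.21, 2.35 and 2.83. Over mitochondrial ribosomal protein genes it was 1.22, 1.26, 2.45 and 3.16. Members have higher means than most genes of these lists, and variation falls with the mean, so the comparison is not at matched level. With cells of at most 50% mitochondrial TPM the member values were 0.394, 0.547, 0.751 and 1.17.

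Members were ranked by variation only where their mean TPM in the group was at least 100. The steadiest of these were Rps28 (0.452), Rps15 (0.494) and Rps29 (0.504) in ESC and Rpl37a (0.537), Rps3 (0.553) and Rps3a1 (0.562) in FL_HSC. In Eng_BM-HSC Rpl32 (0.701) was among the steadiest, and in Eng_ES-HSC they were Rpl41 (0.695), Rps29 (0.708) and Rpl23a (0.847). The most variable member past that level in ESC was Rps15a (2.26), which had a median of 161 TPM and reached 4557 in 1 cell. The next in ESC was Rpl7l1 (0.979), with a median of 110 and a highest cell of 581. In Eng_BM-HSC Rpl5 was highest (3.75), with a median of 4.37 TPM and a highest cell of 2573, before Rpl19 (3.18), with 2001 and 92909.6. Some members with lower means varied more, such as Rpl39l (2.54) in ESC and Rps4l (7.89) in Eng_BM-HSC.

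**Figure D5:**
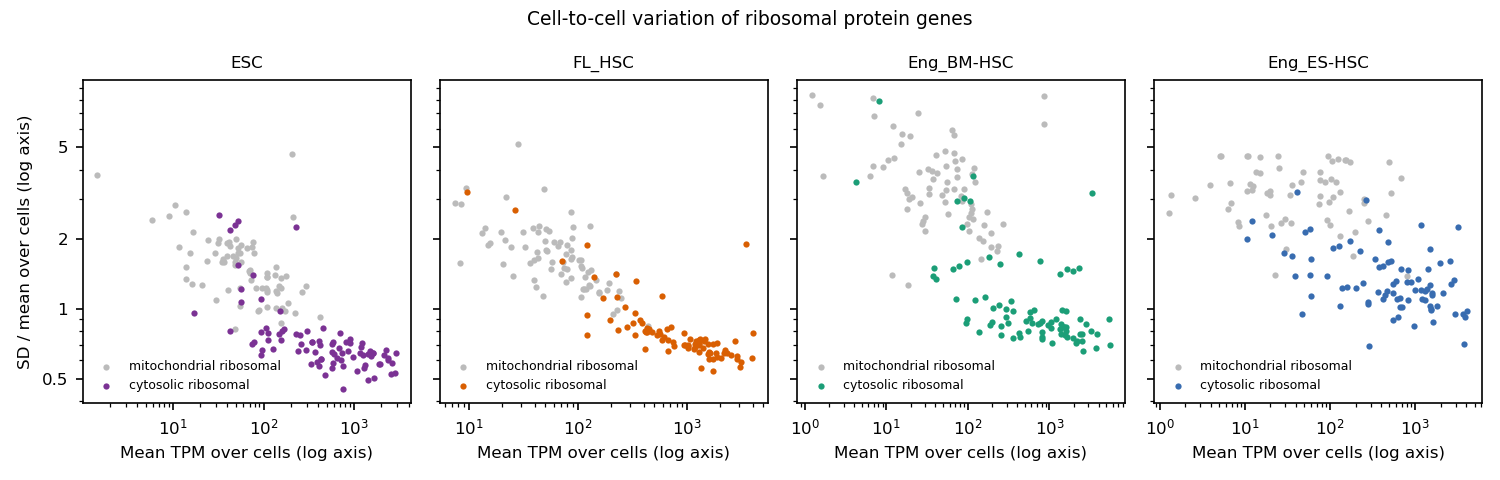
Coefficient of variation over cells against mean TPM (both log axes) for cytosolic members (colour) and mitochondrial ribosomal protein genes (grey) with a mean TPM of at least 1, 1 panel per group. In each panel most members lie at higher means and lower variation, with the member values highest in Eng_ES-HSC.

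Most members rose and fell with the rest of the family from cell to cell. Other genes were not measured in this way, so the relation is not read as particular to the members. The Spearman correlation of a member with the sum of the others had a median of 0.757 over 86 members among ESC, 0.777 over 85 among FL_HSC, 0.582 over 84 among Eng_BM-HSC and 0.435 over 84 among Eng_ES-HSC. In cells of at most 50% mitochondrial TPM the medians were 0.488, 0.668, 0.451 and 0.402. The cells of a group share a library and a common TPM total. Part of the relation came with the cells rich in mitochondrial RNA: without them the median fell in every group, most in ESC. Among members with a mean TPM of at least 100, the lowest values were those of Rps15a (0.550) among ESC, Rps27rt (0.268) among FL_HSC, Rps27l (0.222) among Eng_BM-HSC and Rpl29 (-0.071) among Eng_ES-HSC.

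In Eng_ES-HSC, where granulocyte markers were detected in 19 of 21 cells, their summed TPM and the ribosomal protein share without mitochondrial genes had a Spearman correlation of -0.330 over 21 cells, which share 1 library and 1 TPM total. In Eng_BM-HSC, with such markers in 22 of 76 cells, it was 0.118, and in FL_HSC, with 54 of 87, it was 0.052. Only 2 of the 10 markers were detected in any FL_HSC and 6 in any Eng_BM-HSC, against all 10 in Eng_ES-HSC. With the ribosomal protein share of all TPM the correlation was -0.062 in Eng_ES-HSC, 0.200 in Eng_BM-HSC and 0.151 in FL_HSC. The part of cells with these markers in the differences above was not tested.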

How the data were processed

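The table holds polyA RNA values of single cells on a natural log scale, as deposited by the authors. The labels state neither base nor added constant; exp(x) - 1 gave totals of 414503 to 962583 per cell, as natural log of TPM + 1 with rows left out would. The submitters' processing notes list HISAT 0.1.6, Salmon 0.3.2 and GRCm38 but no roles. The depth per cell is unknown, since TPM keeps none. Values were turned to TPM and log2(TPM + 1), with a pseudocount of 1, which understates differences of low genes. ERCC (92) and reporter rows (11) were left out. Cells of 1 group correlating above a Pearson r of 0.9 (3 pairs) were averaged, as 1 library may have been deposited more than once. Doublets were not called, and cells were not clustered. Groups follow the titles. Detection means a TPM of at least 1, and intervals for shares of cells are exact Clopper-Pearson 95%. These and the limit for 0 cells (3 cells of the total) cover counting error only.

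Members, gene lists, tests and the rule for named genes were chosen with earlier results of these data known. The rule named, per group, the 5 highest and 5 lowest members and the 3 with lowest and highest variation (mean TPM of at least 100), per pair the 5 most positive and most negative differences from the member median (mean TPM of at least 10, detection in at least 50% of cells), all paralogue pairs and the fixed lists. Some genes that the rule names are not reported here. Lengths, places and 31-base words came from GENCODE M21. Python 3.11.15, numpy 2.4.6, pandas 2.3.3, scipy 1.17.1 and matplotlib 3.10.9 were used. The sign of the group difference was checked within Eng_BM-HSC and within FL_HSC, on cells split at random with known changes put into some genes. The pyrimidine-run and quantile steps were checked on made-up input. The other steps were not checked in this way. Alternatives covered cell and gene filters, pseudocounts, scaling and detection levels.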

Additional observations from a re-analysis of the deposited data

How the results depend on the processing

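No paired analysis was possible because cell numbers only name cells and no result comes from a test. Gene filters, detection at a TPM of 10, adding pseudogene rows and counting near-identical cells separately left every result they were run on within its tolerance (the SD over cells, or 1.5 times for a count). With cells of 1000 to 3000 genes, the share of all TPM was 1.36% in ESC and 2.82% in FL_HSC. Median differences there were -0.57 (FL_HSC minus ESC), 2.39 (Eng_BM-HSC minus ESC), 1.27 (Eng_ES-HSC minus ESC), 2.70 (Eng_BM-HSC minus FL_HSC) and 1.61 (Eng_ES-HSC minus FL_HSC). Members lower were 30, 2, 4, 1 and 5 in these pairs, and higher were 68, 50, 75 and 50 in the last 4. The median of all genes there was 0, 0.17, 0, 0.08 and 0 in the same order. Counts of members under the alternatives stand without the share of all genes past the same difference, which is given for the main setting only. Single members that turned there were Rpl21 (1.73) and Rps19 (1.17) for Eng_BM-HSC minus FL_HSC and Rpl7l1 (0.61) for Eng_BM-HSC minus ESC. The paralogue share was 9.06% for Rpl22l1 and 72.3% for Rpl36al in FL_HSC and 17.9% for Rps4l in ESC. Members detected were 69.5 in ESC and 50 in FL_HSC, and the median coefficient of variation 1.15 and 1.49.

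With no filter on cells FL_HSC minus ESC was -0.34 with 6 members higher. Members higher were 0 in Eng_BM-HSC minus ESC, Eng_ES-HSC minus ESC, Eng_BM-HSC minus FL_HSC and Eng_ES-HSC minus FL_HSC and 1 in Eng_ES-HSC minus Eng_BM-HSC, and lower were 74 for Eng_BM-HSC minus ESC and 54 for Eng_BM-HSC minus FL_HSC. Rps15a was at -0.44 for Eng_ES-HSC minus FL_HSC. With mitochondrially encoded genes left out, FL_HSC minus ESC was -0.12, the share in Eng_ES-HSC 14.7%, and higher and lower counts were 1 and 42 for Eng_BM-HSC minus ESC and 1 higher for Eng_ES-HSC minus ESC.

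The log2 of mean TPM gave 0.39 for Eng_BM-HSC minus ESC and 0.071 for Eng_ES-HSC minus ESC. Its counts higher and lower were 33 and 4 (FL_HSC minus ESC), 14 and 8 (Eng_BM-HSC minus ESC), 15 and 10 (Eng_ES-HSC minus ESC) and 3 and 35 (Eng_ES-HSC minus FL_HSC), with 0 higher for Eng_BM-HSC minus FL_HSC and 18 lower for Eng_ES-HSC minus Eng_BM-HSC. A pseudocount of 10 gave 10 lower for FL_HSC minus ESC, 5 higher and 11 lower for Eng_BM-HSC minus ESC, 35 lower for Eng_ES-HSC minus ESC, 0 higher for Eng_BM-HSC minus FL_HSC, 2 higher for Eng_ES-HSC minus FL_HSC, and 2 higher and 25 lower for Eng_ES-HSC minus Eng_BM-HSC. A pseudocount of 0.1 gave 41 lower for Eng_BM-HSC minus ESC. Quantile normalization gave 28 higher for FL_HSC minus ESC, 7 for Eng_ES-HSC minus ESC and 8 for Eng_ES-HSC minus FL_HSC, and 23 lower for Eng_ES-HSC minus Eng_BM-HSC; it moved the median of all genes by 0.04 to 0.51. With cells of at most 50% mitochondrial TPM, chosen after seeing the data, members higher were 1 for Eng_BM-HSC minus FL_HSC, 2 for Eng_ES-HSC minus FL_HSC and 1 for Eng_ES-HSC minus Eng_BM-HSC, and the coefficient of variation in ESC, over members past the level in those cells, was 0.400. The median share of Rps4l within a cell was 0 in Eng_ES-HSC. The causes were not tested.

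Each group is 1 library and 1 sample here. Only 21 Eng_ES-HSC were kept. The shares of Rps27l and Rps4l were highest in ESC under each of the 6 alternatives run on them, while Rpl39l was at 0 in ESC of 1000 to 3000 genes and in the median ESC.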
